A study of Mus musculus with 8 samples.

Results

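Skeletal muscle fibres express either a slow, oxidative or a fast, glycolytic set of contractile and metabolic genes, and a group of transcription regulators holds each nucleus to one of these programmes. Levels of 9 such regulators were read in white gastrocnemius of homozygous Pus1 mutant and wild type mice: Six4, Eya1, Eya4, Tead1, Vgll2, Sox6, Prox1, Tbx15 and Nfatc1. The genes were chosen for this known role, and all non-control probes whose accession mapped to one of their symbols were taken. All 9 genes were on the array, with 12 of its 55681 probes, and the array named 20972 genes in all.

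RNA came from the white, fast portion of the gastrocnemius, a calf muscle, of 4 homozygous Pus1 mutants and 4 wild type mice aged 14 to 16 weeks. Both groups had a C57BL/6J background after 5 generations of backcrossing, and each group held males (individuals 1 and 2) and females (individuals 3 and 4). Pus1 encodes a pseudouridine synthase that modifies uridine in tRNA and other RNA, and the series describes the mutant as a knockout. Each of 4 arrays of 2 colours held 1 mutant and 1 wild type of the same sex and individual number, and the mutant carried Cy5 in pairs 1 and 3 and Cy3 in pairs 2 and 4.

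Six4 protein binds MEF3 sites with EYA proteins as coactivators, a complex known for driving fast fibre genes in mice. TEAD factors bind MCAT elements in muscle genes and need cofactors such as VGLL2, while SOX6 holds slow genes down in fast fibres of mice. NFATC1 enters the nucleus when calcineurin, a phosphatase activated by calcium, dephosphorylates it, and favours slow genes during sustained nerve activity. PROX1 is known from slow fibres and from lymphatic endothelium, and TBX15 from fast glycolytic fibres of mice.

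Pus1, on chromosome 5, had normalized log2 intensities of 6.75, 6.92, 6.49 and 6.84 in mutants 1 to 4, against 8.06, 8.37, 8.15 and 8.28 in wild types 1 to 4. Levels here and below are such intensities, which are not compared between probes. The Pus1 probe was well above background in 0 of 4 mutants and in 4 of 4 wild types, and its adjusted p in limma was 0.0786. Of the probes, 36.9% to 45.5% were well above background in an animal. Of the fast fibre genes, 24 of 24 passed the filter for testing (well above background in at least 4 of 8 animals), and of the slow fibre genes 20 of 21 did. Among 23098 tested probes, 0 (0%) differed between mutants and wild types at an adjusted p under 0.05 and 774 (3.35%) did so at an unadjusted p under 0.05. With 4 arrays the precision of each value is limited by their number, and in bulk muscle fewer cells of a type cannot be told apart from less RNA per cell.

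Promoter sequences were held for 5 of the 9 genes, in 13 windows of 300 bases about a transcription start, from RefSeq on GRCm38.p6. Sox6 had the most windows, and those of Eya4 and of Six4 overlapped in part, so the 13 are not separate promoters. All windows were searched on both strands for motifs linked to these factors. The MEF3 letters TCAGGTT were found in 2 of the 13 windows, against 4.07% of 32817 promoter windows of all genes. Those 2, of Six4 (chr12:73113196-73113495, minus strand) and Sox6 (chr7:115824661-115824960, minus strand), are shown because they carry letters that Six4 and its relatives are known to bind. Capitals mark MEF3, read on the opposite strand at base 154 of Six4 and on the gene's own strand at base 43 of Sox6. In Sox6 capitals also mark the SOX letters AACAAT at base 15 and, on the opposite strand, at base 26. Positions count from 1 at the 5′ end.
Six4: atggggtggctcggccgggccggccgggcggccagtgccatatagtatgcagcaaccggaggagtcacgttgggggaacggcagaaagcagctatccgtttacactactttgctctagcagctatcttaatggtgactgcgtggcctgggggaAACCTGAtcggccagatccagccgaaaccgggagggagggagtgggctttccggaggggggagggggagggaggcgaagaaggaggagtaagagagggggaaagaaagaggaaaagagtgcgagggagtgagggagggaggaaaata
Sox6: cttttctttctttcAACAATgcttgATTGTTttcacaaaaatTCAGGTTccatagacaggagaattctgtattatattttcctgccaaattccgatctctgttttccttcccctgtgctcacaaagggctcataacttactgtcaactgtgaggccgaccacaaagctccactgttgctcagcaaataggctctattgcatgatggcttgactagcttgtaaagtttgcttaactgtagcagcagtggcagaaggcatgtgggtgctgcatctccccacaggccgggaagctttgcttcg

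The Vgll2 window (chr10:52022252-52022551, plus strand) is shown because Vgll2 varied most among the animals. Capitals mark the E-box at base 5, the NFAT cores at bases 10, 26 and 173, and an NFAT core on the opposite strand at base 155. The E-box and the first NFAT core share a base. MEF3, MCAT, SOX and T-box letters were not in this window.
Vgll2: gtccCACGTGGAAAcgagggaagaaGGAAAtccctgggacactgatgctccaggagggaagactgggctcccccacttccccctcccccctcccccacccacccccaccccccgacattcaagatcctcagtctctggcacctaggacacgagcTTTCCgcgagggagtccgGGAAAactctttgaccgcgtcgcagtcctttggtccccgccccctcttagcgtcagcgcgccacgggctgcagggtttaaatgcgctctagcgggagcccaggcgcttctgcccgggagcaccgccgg
The NFAT core GGAAA was found in 12 of the 13 member windows, against 61.3% of all windows. The E-box CANNTG was found in 10 of 13, against 72.3% of all windows. SOX letters were in 1 of 13, against 3518 of 32817 windows in all. The MCAT letters CATTCC were in 2 of 13, against 14.7% of all windows. The T-box core AGGTGT was also in 2 of 13, against 13.7% of all windows. All SOX, MCAT and T-box matches in member windows lay in windows of Sox6, which had the most windows. These matches describe letters only, and no binding was measured.

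All probes of 8 of the 9 genes, 11 in number, were well above background in 8 of 8 animals, and none of the 11 passed the test between Pus1 mutants and wild types. The limma fit across all tested probes gave each of them an adjusted p of 0.9998. Their unadjusted p-values began at 0.107, so 0 of 11 passed 0.05, which 3.35% of all tested probes did. Mutant and wild type animals overlapped for each of the 11 probes, where 1.27% of all tested probes had groups that did not overlap. Fitted log2 ratios of mutant over wild type, read by each gene's brightest probe, lay between −0.15 for Vgll2 and 0.08 for Sox6. Their median was −0.08, against 0.0013 over all tested probes. The ratio was below 0 for 7 of 8 genes, against 49.6% of all tested probes. Without pair 1, Eya1, Six4, Tbx15, Tead1 and Vgll2 stood above 0, and the median was 0.08. The medians of the 4 pairs were −0.14, −0.01, 0.19 and −0.11. Only that of pair 3, a female pair, was above 0, and that of pair 2 was close to 0.

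**Figure D1:**
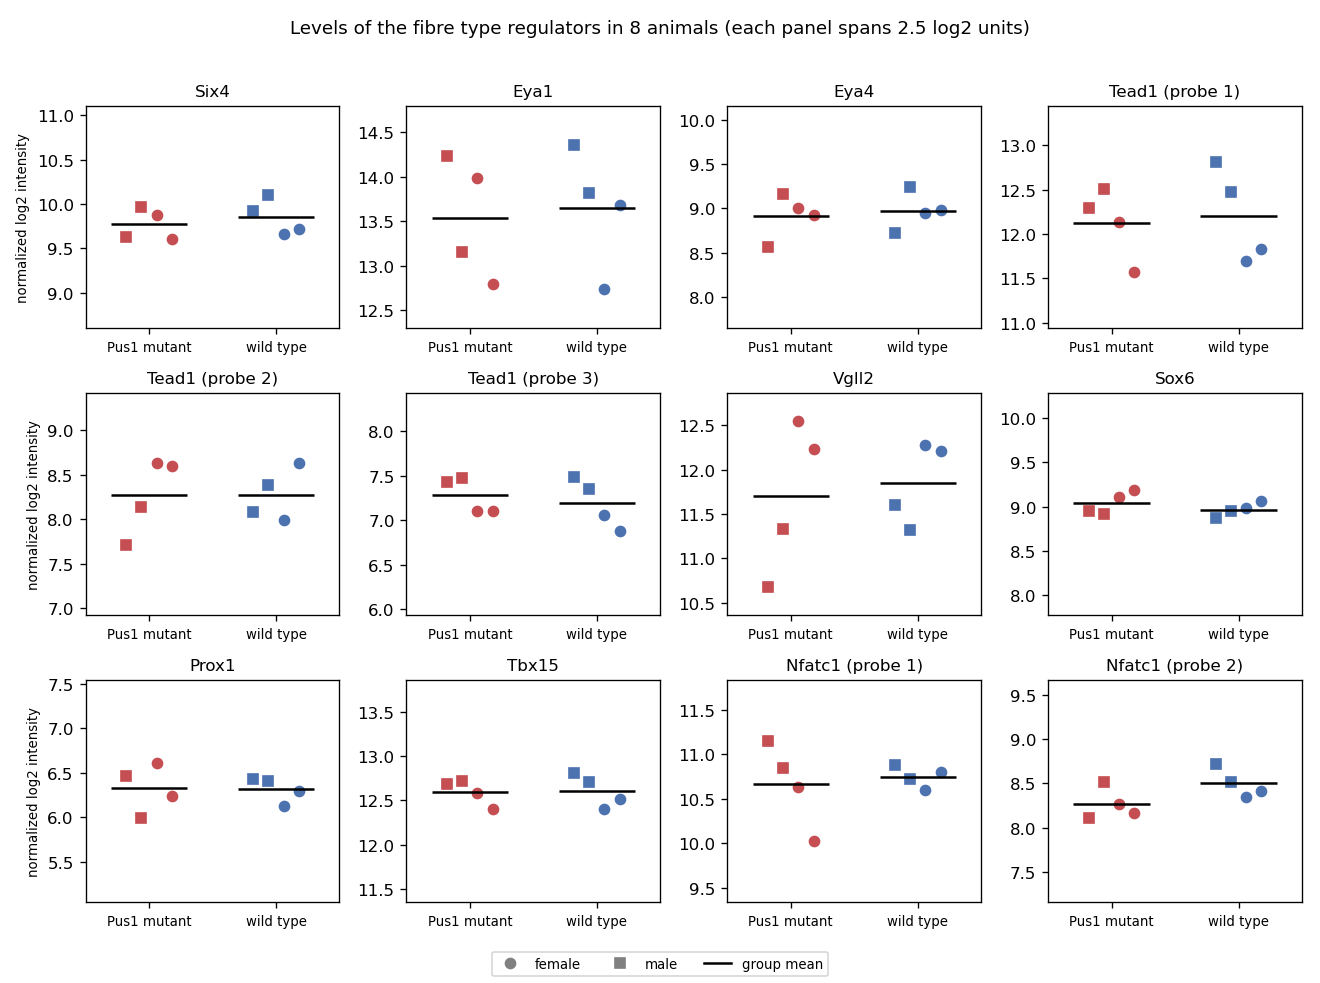
Normalized log2 intensity of each probe in 4 Pus1 mutants (red) and 4 wild types (blue), with circles for females, squares for males and a line at the group mean; the vertical axes all span the same number of log2 units. Groups overlap in every panel, Eya1 and Vgll2 scatter widely, Sox6 and Tbx15 lie close together, and Prox1 was not well above background in any animal.

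Six4, a homeodomain factor (chromosome 12), had log2 levels of 9.63, 9.97, 9.87 and 9.61 in mutants, against 9.92, 10.10, 9.66 and 9.72 in wild types. Mutant 4 was lowest and wild type 2 highest, and the groups interleaved. The means were 9.77 ± 0.18 in mutants and 9.85 ± 0.20 in wild types (SD, n = 4 each). The fitted ratio was −0.08 (SE 0.11), with a 95% interval of −0.36 to 0.20, that is 0.779-fold to 1.15-fold.

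Eya1, the EYA coactivator that accumulates in nuclei of fast fibres in mice (chromosome 1), had levels of 14.23, 13.15, 13.99 and 12.80 in mutants, against 14.36, 13.81, 12.74 and 13.68 in wild types. High and low animals occurred in both genotypes, with the highest and the lowest both among wild types. The means were 13.54 ± 0.68 in mutants and 13.65 ± 0.67 in wild types (SD, n = 4 each). Eya1's SD over the 8 animals was larger than that of 96.0% of tested probes. Pair ratios were −0.13, −0.66, 1.25 and −0.88, so pair 3 opposed the other pairs, and the fitted ratio was −0.11 (SE 0.22, interval −0.65 to 0.43). This interval reaches 0.638-fold and 1.35-fold, the widest among the members on the log2 scale. Its dye effect, Cy5 over Cy3, was 0.67 on the log2 scale, and the ratio is fitted beside that term. The levels, their SD and the pair ratios carry no dye correction, so they include this effect.

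Eya4, another EYA family member (chromosome 10), had levels of 8.57, 9.16, 9.001 and 8.92 in mutants, against 8.73, 9.24, 8.95 and 8.98 in wild types. The animals of pair 1 were the lowest of each genotype and those of pair 2 the highest, and the genotypes overlapped. The fitted ratio was −0.06 (SE 0.09, interval −0.29 to 0.17).

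The other measured relatives of Six4, of the EYA coactivators and of their DACH partners gave the same picture, with 0 of 7 tested genes past an unadjusted p of 0.05. Of these 7 genes, 3 had ratios above 0 and 4 below, with a median of −0.05. The ratios of Six2, Eya3 and the DACH corepressor Dach2 were −0.05, −0.09 and −0.10.

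Tead1, a TEAD factor that binds MCAT elements (chromosome 7), was read by 3 probes. The brightest (A_51_P214423) had levels of 12.29, 12.51, 12.13 and 11.57 in mutants, against 12.81, 12.47, 11.70 and 11.84 in wild types. Males lay above females in both genotypes, and the genotypes overlapped. Its fitted ratio was −0.08 (SE 0.17, interval −0.50 to 0.34). Probe A_55_P2011390 had levels of 7.71, 8.13, 8.64 and 8.59 in mutants, against 8.08, 8.38, 7.99 and 8.63 in wild types. Probe A_55_P2159885 had levels of 7.43, 7.47, 7.10 and 7.11 in mutants, against 7.49, 7.35, 7.06 and 6.88 in wild types. Fitted ratios of these 2 probes were −0.00085 (SE 0.17) and 0.08 (SE 0.09), so the 3 probes did not share a sign and none departed from 0 beyond its error.

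Vgll2, a vestigial-like cofactor of TEAD proteins made mainly in skeletal muscle (chromosome 10), had levels of 10.68, 11.33, 12.55 and 12.24 in mutants, against 11.60, 11.32, 12.28 and 12.21 in wild types. Mutant 1 was lowest and mutant 3 highest, 1.87 log2 units apart, and the wild types lay between them. The means were 11.70 ± 0.85 in mutants and 11.85 ± 0.47 in wild types (SD, n = 4 each). This SD over 8 animals exceeded that of 96.3% of tested probes, the highest rank among the 12 member probes. Pair ratios were −0.92, 0.01, 0.27 and 0.03, so pair 1 stood apart, and the fitted ratio was −0.15 (SE 0.19, interval −0.63 to 0.32). Mutant 1 also had the lowest mean level of slow fibre genes (9.42, against 10.03 to 11.92 in wild types). The same animal had the highest mean levels of fibroblast markers (11.53, against 10.38 to 11.12 in wild types) and adipocyte markers (9.98, against 8.76 to 9.73). The part of these marker levels in the Vgll2 value was not tested.

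Among the other TEAD, VGLL and Hippo pathway genes, 16 of 21 were tested and 0 passed the adjusted threshold. At an unadjusted p under 0.05, 1 was higher and 1 lower in mutants. These were Amotl1, a scaffold that can hold YAP in the cytoplasm, with a ratio of 0.29 (SE 0.11), and Sav1, a Hippo kinase adaptor, with −0.25 (SE 0.09). Ratios were above 0 for 12 genes and below 0 for 4, with a median of 0.05. With median centring of arrays this list's median was −0.02, where that of all tested probes was −0.06. Yap1, the coactivator that the pathway restrains, had a ratio of 0.04 (SE 0.10).

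Sox6, a repressor of slow genes in fast fibres of mice (chromosome 7), was among the steadiest transcripts. Levels were 8.95, 8.92, 9.11 and 9.18 in mutants, against 8.88, 8.94, 8.98 and 9.07 in wild types. All 8 animals lay within 0.31 log2 units, and only 7.61% of tested probes had a smaller SD. The fitted ratio was 0.08 (SE 0.09, interval −0.15 to 0.30), or 0.902-fold to 1.23-fold. The ratio was −0.0047 when arrays were centred on their median in place of loess, where the median of all tested probes was −0.06.

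Prox1, a homeodomain factor of slow fibres and lymphatic endothelium (chromosome 1), was not well above background in any of the 8 animals. Raw spot signals in Cy3 were 55 and 64 units in mutants 2 and 4, against 68 and 55 in wild types 1 and 3, with local background of 46 to 50 units. In Cy5 they were 159 and 169 units in mutants 1 and 3, against 160 and 145.5 in wild types 2 and 4, with background of 134 to 145 units. Its level therefore has only a bound, and no fold or test is given. Of the lymphatic endothelium markers, Flt4 and Reln were likewise not well above background in any animal. Lyve1 and Pdpn were tested, with ratios of 0.11 and 0.08. The lymphatic marker mean ranged between 7.76 and 8.48 in mutants and between 7.81 and 8.14 in wild types.

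Tbx15, a T-box factor of glycolytic fibres in mice (chromosome 3), had levels of 12.68, 12.72, 12.58 and 12.41 in mutants, against 12.81, 12.71, 12.40 and 12.52 in wild types. The genotypes covered almost the same range. The means were 12.60 ± 0.14 in mutants and 12.61 ± 0.18 in wild types (SD, n = 4 each), and the fitted ratio was −0.01 (SE 0.10, interval −0.26 to 0.23).

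SOX, TBX and PROX relatives and their cofactors had 10 tested genes of 15, with a median ratio of −0.02, and 0 passed the adjusted threshold. Only lower values in mutants passed an unadjusted p of 0.05, for 2 of the 10: Tbx3, a T-box repressor, at −0.27 (SE 0.09) and Tle1, a Groucho-type corepressor, at −0.32 (SE 0.12). Further Tle1 probes, at −0.24, −0.23 and −0.07, did not pass. Sox5, the closest relative of Sox6, had a ratio of −0.14 (SE 0.31) and varied widely, with 15.54 ± 1.20 in mutants and 15.68 ± 0.75 in wild types (SD, n = 4 each). Tbx22 did so as well, with 12.78 ± 1.30 in mutants and 12.79 ± 0.94 in wild types and a ratio of −0.01.

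Nfatc1, the calcineurin-responsive factor (chromosome 18), was read by 2 probes. The brighter (A_51_P517870) had levels of 11.15, 10.84, 10.63 and 10.02 in mutants, against 10.88, 10.72, 10.60 and 10.80 in wild types. Mutants held both the highest and the lowest animal, and wild types lay close together. The ratio was −0.09 (SE 0.16, interval −0.48 to 0.31), with mutant 4 furthest from its partner (−0.77), and without pair 4 it stood at 0.14. Probe A_51_P220135 had levels of 8.11, 8.51, 8.27 and 8.17 in mutants, against 8.72, 8.51, 8.35 and 8.42 in wild types. All 4 pairs were below 0, the only such probe among the 11, where 9.93% of tested probes had 1 sign in all pairs. Its ratio of −0.23 (SE 0.12, interval −0.53 to 0.07) had the smallest unadjusted p among the members, 0.107 in limma, which does not pass the threshold, and the wild type 2 and mutant 2 levels were nearly the same.

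In the NFAT and calcineurin list 18 of 20 genes were tested, 8 with ratios above 0 and 10 below (median −0.03). Here 1 gene passed an unadjusted p of 0.05 and 0 the adjusted threshold. It was Rcan1, a calcineurin regulator, one isoform of which is a known NFAT target in muscle. Rcan1 levels averaged 10.58 ± 0.16 in mutants and 10.04 ± 0.41 in wild types (SD, n = 4 each), with a ratio of 0.54 (SE 0.20). The catalytic calcineurin subunits Ppp3ca and Ppp3cb had ratios of −0.07 (SE 0.14) and 0.05 (SE 0.10), and Nfatc4 had 0.16 (SE 0.09).

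**Figure D2:**
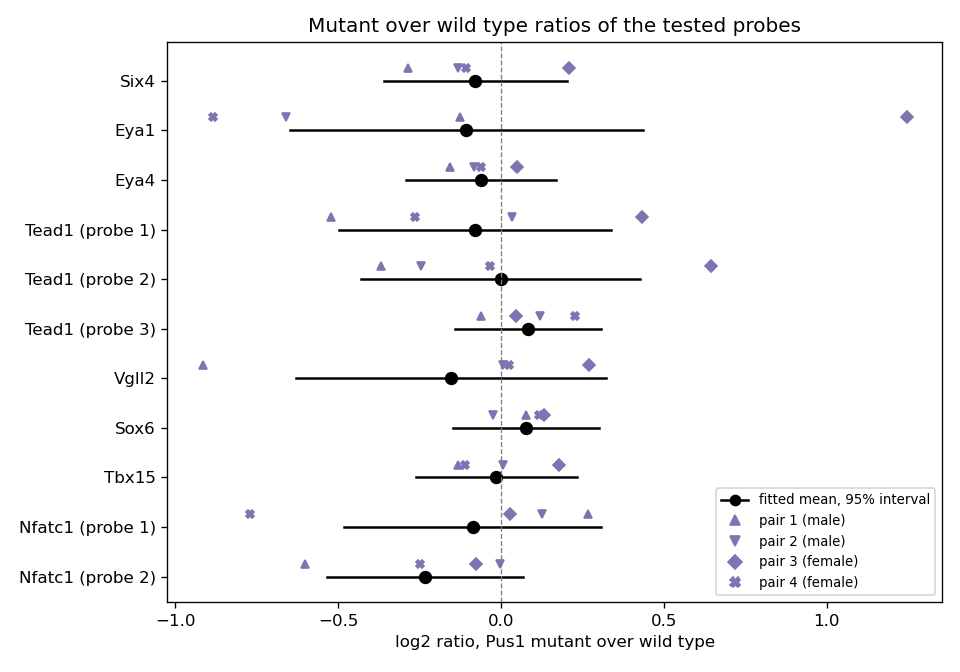
Log2 ratio of Pus1 mutant over wild type for the 11 tested probes: purple symbols are the 4 pairs, black points the fitted mean with its 95% interval. Every interval includes 0, and the widest is that of Eya1, −0.65 to 0.43.

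Beside these genes, MEF2 factors, class II histone deacetylases and their kinases gave 0 of 14 tested genes past an unadjusted p of 0.05, with 7 ratios above 0 and 7 below. Camk2g, Camk2b and Camk2d, kinases that read calcium, had ratios of 0.01, −0.29 and 0.21. Of the other fibre type regulators, 26 of 27 were tested, and 2 were lower in mutants at an unadjusted p under 0.05. Those were Esrrg, an oestrogen-related receptor of oxidative fibres, at −0.39 (SE 0.11) and Fhl2, a LIM-domain cofactor, at −0.35 (SE 0.10). Nr4a1 and Rbfox1 had ratios of −0.18 and −0.05.

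Of the contractile and metabolic genes of the same animals, 0 passed the adjusted threshold. All 20 tested slow fibre genes had ratios below 0, against 49.6% of all tested probes, with a median of −0.91. Of these genes, 5 passed an unadjusted p of 0.05, as did 3.35% of all tested probes. The genes were read in the same 4 pairs, so they are not 20 separate results. Ldhb, the heart-type lactate dehydrogenase subunit, had a ratio of −1.60 (SE 0.29) and Mb, myoglobin, −0.98 (SE 0.20). The other 3 that passed, named after their values were seen, were Myl3 (−1.68, SE 0.41), Sln (−0.92, SE 0.30) and Myoz2 (−1.11, SE 0.38). Myh7, the slow myosin heavy chain, averaged 9.70 ± 1.98 in mutants and 11.42 ± 3.20 in wild types (SD, n = 4 each), a spread so wide that its ratio of −1.73 had an SE of 1.42. Fabp3, which binds fatty acids, had −0.10 (SE 0.09). Pair 2 opposed the other pairs in this list, with pair medians of −1.45, 0.54, −0.76 and −1.28, and without each pair in turn the list's median ranged between −1.55 (without pair 2) and −0.01 (without pair 4). Fast fibre genes had a median of 0.02. With median centring of arrays their median was −0.09, where that of all tested probes was −0.06. Among the fast fibre genes, Myh1 and Myh2, myosins of type IIX and IIA fibres, had ratios of −1.29 (SE 0.25) and −1.48 (SE 0.43) and passed an unadjusted p of 0.05. Pair 1 stood apart for Myh2, with pair ratios of −4.43, −0.14, −1.54 and 0.17, the last of the opposite sign. Myoz3, a Z-disc protein named here after its values were seen, also passed an unadjusted p of 0.05, at −0.30 (SE 0.10). Myh4, the type IIB myosin, stood at 0.00 (SE 0.21), and Tnni2 and Tnnt3 at 0.07 and 0.12, a second Tnnt3 probe giving −0.09. Spots flagged as saturated were kept, and a signal ceiling on such bright probes was not tested.

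Whether the regulators followed the slow fibre genes from animal to animal was read with the mean level of the 20 slow genes. That mean was 9.42, 11.05, 10.10 and 10.37 in mutants 1 to 4, against 11.21, 10.03, 11.01 and 11.92 in wild types 1 to 4. Of 8 relations computed over 8 animals, 0 passed the threshold in exact permutation tests, two-sided and adjusted over the 8. The strongest was that of Vgll2, with Pearson's r of 0.43 (exact permutation p = 0.293, adjusted 0.973) and Spearman's rho of 0.29 (exact permutation p = 0.501, adjusted 0.977). Without the 2 animals farthest from the median, mutant 1 and wild type 4, r for Vgll2 was −0.25, so the positive value rested on those animals. Eya1 gave r of −0.24 and rho of −0.19, Eya4 gave 0.22 and 0.02, and the other 5 genes had r between −0.14 and 0.01. Each sex held 4 animals, too few for a correlation within it.

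**Figure D3:**
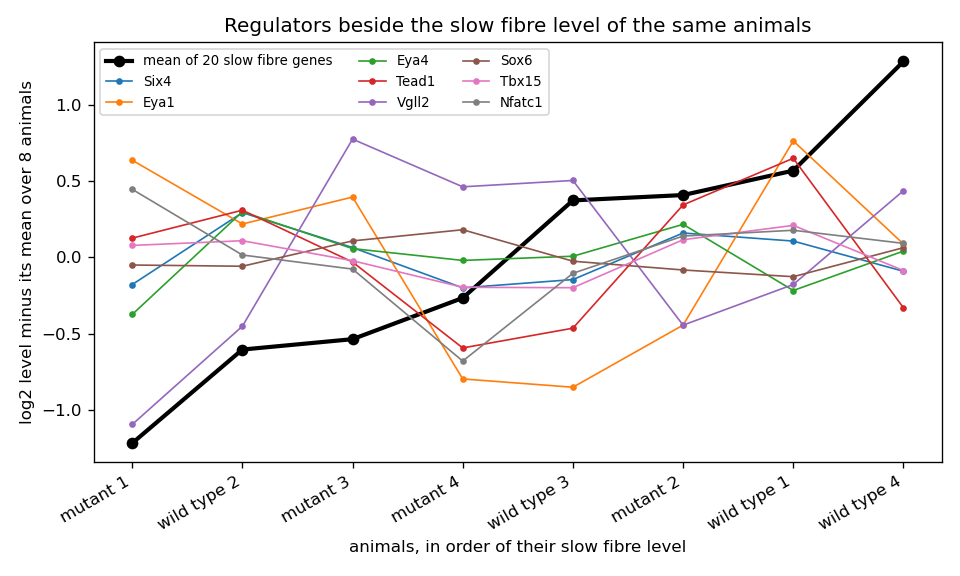
Levels of the 8 measured regulators and the mean of 20 slow fibre genes (thick black line) in each animal, as log2 level minus its own mean over 8 animals, with animals ordered by slow fibre level. No regulator climbs along with the black line across all animals, and Vgll2 is lowest in mutant 1, which also has the lowest slow fibre level.

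For some of these regulators the sexes lay apart. This comparison was added after the values had been seen, and each array held 1 sex, so that sex and array cannot be told apart beyond the spread of the 2 arrays of each sex. Animals of the sexes did not overlap for 5 of the 11 probes, against 17.4% of all tested probes. Every female lay above every male for 2 probes (7.1% of all tested probes) and below for 3 (10.3%). With genotype and dye as further terms, 0 of the 11 passed an adjusted p of 0.05, a threshold that 319 probes (1.38%) passed, and 4 passed an unadjusted p of 0.05, as did 23.1% of tested probes.

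Vgll2 had the largest difference, 1.09 log2 units higher in females (SE 0.22, interval 0.59 to 1.59), or 2.12-fold. Its level averaged 12.32 ± 0.16 in females and 11.23 ± 0.39 in males (SD, n = 4 each), and each of 4 females, at 12.21 to 12.55, lay above each of 4 males, at 10.68 to 11.60. The adjusted p in limma was 0.0576, just outside the threshold. Without pair 1 it was 0.0297 with a difference of 0.99, but without pairs 2, 3 and 4 it was 0.0916, 0.105 and 0.626, and with no scaling between arrays 0.106. The brightest Tead1 probe ran the other way, at 11.57 to 12.13 in females and 12.29 to 12.81 in males, a difference of −0.71 (SE 0.19, adjusted p = 0.0959 in limma). Probe A_55_P2159885 also lay lower in females, at 6.88 to 7.11 against 7.35 to 7.49 in males (−0.40, SE 0.10, adjusted p = 0.0843 in limma). Probe A_55_P2011390 of the same gene overlapped between the sexes and had a difference of 0.39 (SE 0.22) of the opposite sign, so the Tead1 probes disagree.

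Tbx15 was at 12.40 to 12.58 in females and 12.68 to 12.81 in males, with a difference of −0.25 (SE 0.10, adjusted p = 0.201 in limma). Sox6 was at 8.98 to 9.18 in females and 8.88 to 8.95 in males, with a difference of 0.16 (SE 0.10, adjusted p = 0.359 in limma). These narrow gaps separated the sexes without passing the test. The remaining regulators overlapped between the sexes, with differences of −0.58 for Eya1, −0.39 for the brighter Nfatc1 probe, −0.19 for Six4 and 0.04 for Eya4. Over all tested probes the median female minus male difference was −0.04. It was 0.43 over the slow fibre genes, 0.32 over Schwann cell markers, 0.30 over erythroid markers, 0.19 over fibroblast markers and −0.10 over adipocyte markers. Among the Schwann cell markers Ngfr, named after its values were seen, was 0.83 higher in females (adjusted p = 0.0203 in limma). The part of these in the Vgll2 and Tead1 values was not tested.

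**Figure D4:**
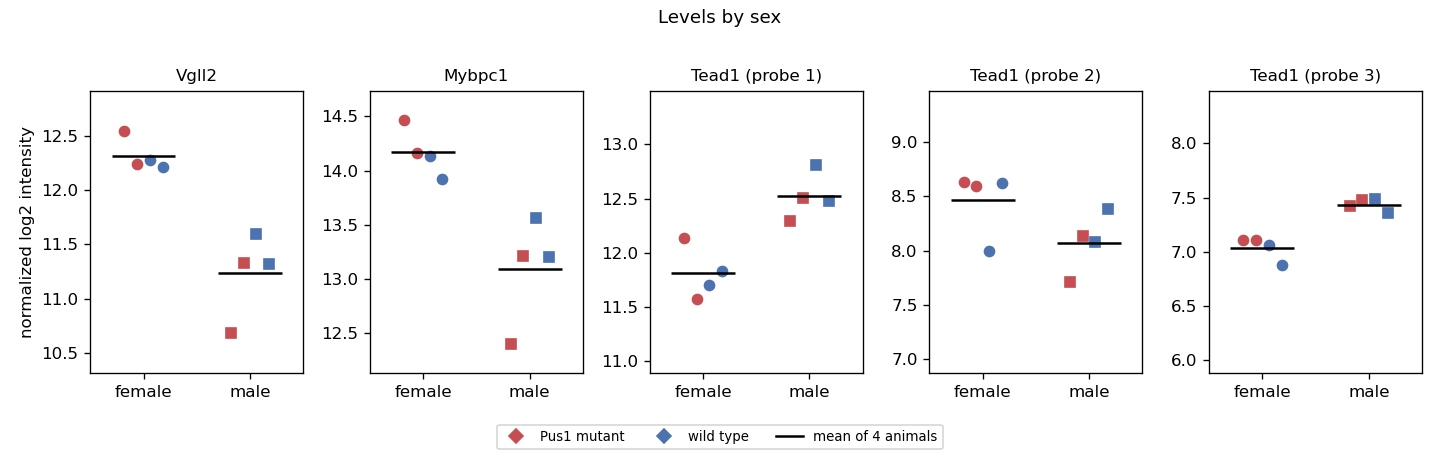
Normalized log2 intensity of Vgll2, Mybpc1 and the 3 Tead1 probes in 4 females and 4 males, with Pus1 mutants in red, wild types in blue and a line at the mean of each sex. All females lie above all males for Vgll2 and Mybpc1. Mybpc1 was picked for its likeness to these Vgll2 levels, so its split by sex is not separate support. All females lie below all males for Tead1 probes 1 and 3, while the sexes overlap for Tead1 probe 2. The Tead1 probes are numbered in the order A_51_P214423, A_55_P2011390 and A_55_P2159885.

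The genotype effect itself was not shown to differ between the sexes. The interaction, as the male minus the female log2 ratio, had an adjusted p of 0.99996 in limma for each of the 11 probes, and 0 of 11 passed an unadjusted p of 0.05, which 2.19% of tested probes did. The smallest p-values were those of Tead1 probe A_55_P2011390 at −0.61 (SE 0.28, unadjusted p = 0.0706 in limma) and Nfatc1 probe A_51_P517870 at 0.57 (SE 0.26, unadjusted p = 0.0733 in limma).

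Genes whose levels were nearest to each regulator were found by the mean absolute difference of centred log2 levels over 8 animals, among 11892 genes. Nearest to Vgll2 was Mybpc1, the slow skeletal isoform of myosin binding protein C, at 0.0727 log2 units. The median gene lay 0.573 from Vgll2, and Vgll2 itself deviated by 0.543 from its own mean. Mybpc1 levels were 12.40, 13.22, 14.47 and 14.16 in mutants, against 13.57, 13.21, 14.13 and 13.92 in wild types, so mutant 1 was lowest and mutant 3 highest, as for Vgll2. Mybpc1 was picked from 11892 genes by these same levels, so the shared order and its split by sex are not separate support. It also belongs to the slow fibre genes whose mean was set beside Vgll2. The next nearest, Aldh2, a mitochondrial aldehyde dehydrogenase, was already 0.163 away.

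Eya1, the other regulator with a wide spread (0.524 from its mean, dye effect included), lay nearest to Atxn7 (0.0366) and Neurl1b (0.0370). Among the genes near Tead1 was Bod1, at 0.0983. Nfatc1 had Zfp62 (0.0834) and Atp8b4 (0.0926). For the steadier genes the distances are short in part because little varied: Sox6 deviated by only 0.0872 from its mean and lay nearest to Akr7a5 (0.0274) and Puf60 (0.0333). Tbx15 was nearest to Cog1 (0.0187) and Arl8a (0.0281), Eya4 to Bbx (0.0234) and Zfp422 (0.0503), and Six4 to Plekhm1 (0.0382) and Dido1 (0.0404).

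Markers of the other cells in muscle were read for whole lists, again with 0 genes past the adjusted threshold. Median ratios were 0.62 for erythroid, 0.26 for adipocyte, 0.24 for macrophage and 0.23 for fibroblast markers. They were 0.20 for bone and cartilage, 0.10 for Schwann cell, 0.03 for smooth muscle and satellite cell and −0.01 for blood endothelium markers. Pair medians were 0.76, −0.64, 1.09 and 1.49 for erythroid and 1.46, −1.08, 0.43 and 0.13 for adipocyte markers. For macrophage markers they were 0.89, −0.31, −0.15 and 0.38, so pair 2 was below 0 in each of these lists. Fibroblast markers gave 3 genes higher in mutants at an unadjusted p under 0.05: Col1a1 at 0.78 (SE 0.22), Col3a1 at 0.72 (SE 0.26) and Col1a2 at 0.56 (SE 0.20). Dcn, the brightest fibroblast marker, had a ratio of 0.09 (SE 0.20). Of the 8 fibroblast markers, 7 had ratios above 0 and 1 below, with pair medians of 1.18, −0.21, −0.01 and 0.54. Fabp4 of adipocytes, at 0.26, and Pmp22 of Schwann cells, at 0.42, also passed an unadjusted p of 0.05, while a further Pmp22 probe, at 0.27, did not. Hba-a2 of red cells had a ratio of 0.62, and Csf1r of macrophages 0.18, with −0.02 at a further probe. Pecam1 of endothelium stood at −0.06, Acta2 of smooth muscle at −0.10, and Cdh15 and Pax7 of satellite cells at 0.03 and −0.15. Whether these markers bear on the regulators' values was not tested.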

How the data were processed

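The scanner files deposited per array hold spot intensity values (median spot and local background signal, not background-subtracted) and processed intensity values, per the file headers written by Agilent Feature Extraction 10.7.3.1, with other values, flags of 0 or 1 for outlier, saturated and well-above-background spots, in the same deposited files. The authors' deposited table holds log2 values centred on each probe's median, and no source used here states its further normalization. It served as an alternative only.

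Each array had 62976 spots, 3671 of them controls. Signals were corrected with normexp (offset 50) and loess within arrays, with control and outlier spots at weight 0 and then left out. Spots of a probe were averaged, and 23098 probes well above background in at least 4 of 8 animals were tested. Probes were named through RefSeq accessions in a GRCm38.p6 table (27656 of 55681 probes had 1 symbol). The file headers name mm9, so no probe coordinates are given. In R 4.3.3 with data.table version 1.17.8, limma 3.58.1 was used to fit the log2 ratios with a probe-specific dye term, eBayes and Benjamini-Hochberg adjustment. SE and 95% intervals are moderated, and pair ratios carry no dye correction. Levels are log2 intensities per animal after Aquantile scaling between arrays, with no probe-specific dye correction, and levels of different probes are not compared. Sex differences in level came from separate channels (lmscFit, intraspot correlation 0.191). The fit of the genotype ratio was tested on simulated data, and the fits for sex were not.

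Pairs shared an array, so the ratio is the block: deviations of partners from their group means correlated at 0.66, 0.28, 0.06 and 0.64. Partners also shared their sex, so these correlations cannot be ascribed to the array alone. The members and gene lists were chosen with earlier results of these data known. From each list the text names the 2 genes of highest mean intensity and the 2 of smallest unadjusted p, plus Pus1, Myh7, Myh4, Myh1 and Myh2. From the shorter marker lists only some of these are named. A few genes that this rule picks are not reported here. A gene was read by its brightest tested probe.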

Additional observations from a re-analysis of the deposited data

How the results depend on the processing

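None of the 11 member probes passed the adjusted threshold for genotype under any of 13 alternatives. Over all probes 0 were called in the reported fit, and 23 with median centring (2 higher and 21 lower in mutants), 5 with no filter on dim probes, 2 with no dye term and 13 with separate channels. Without the replicate block, with animals unpaired, 3 were called, and leaving out a pair gave 0 to 245, the highest without pair 3. The median member ratio without each pair ranged between −0.159 and 0.0762. Signs turned for Sox6 with median centring (−0.0047, where the median of all probes was −0.06) and for Tead1 by probe A_55_P2159885 (0.083). Leaving out 1 pair at a time gave ratios of −0.45 to 0.24 for Eya1, −0.31 to 0.14 for Nfatc1, −0.20 to 0.044 for Six4, −0.091 to 0.063 for Tbx15, −0.32 to 0.16 for Tead1 and −0.45 to 0.14 for Vgll2. For the sex difference in the genotype effect, 0 probes were called, 22 with median centring and 38 with no filter. Female against male level called 319 probes, 185 with no scaling between arrays and 18 to 283 without a pair, of which Vgll2 without pair 1 was the 1 member (difference 0.99, and 0.99 to 1.18 over the 4 pairs left out). There Tead1 turned sign by probe A_55_P2011390 (0.39) and Eya4 without a pair (−0.24 to 0.32). The causes were not tested. The relations with slow fibre level stayed at 0 calls in every alternative run. All arrays lay on 1 slide, so no slide block was run.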

Other observations

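Among the regulators and fibre genes, 3 passed an adjusted p of 0.05 in limma between females and males. They came from the 18 tested genes of the NFAT and calcineurin list and the 26 of the other fibre type regulators. The comparison and the choice of genes were made after the values were seen. None passed among the 8 tested members, 7 relatives of Six4, EYA and DACH, or 16 TEAD, VGLL and Hippo pathway genes. The same held for 10 SOX, TBX and PROX relatives and for 14 genes of the MEF2 and histone deacetylase list. It also held for 24 fast and 20 slow fibre genes. Over all tested probes 319 (1.38%) passed, and only 18 did so without pair 4. Rcan2, a calcineurin regulator, had log2 levels of 10.10, 10.30, 10.09 and 10.06 in females, against 11.31, 11.12, 11.53 and 11.10 in males, a difference of −1.13 (adjusted p = 0.0122 in limma). Homer2, a scaffold protein, had 9.02, 8.71, 8.94 and 8.96 in females, against 8.19, 8.19, 8.12 and 8.27 in males, a difference of 0.72 (adjusted p = 0.0225 in limma). Fnip1, a partner of folliculin and AMPK, had 11.35, 11.34, 11.23 and 11.12 in females, against 11.96, 11.92, 11.61 and 11.84 in males, a difference of −0.57 (adjusted p = 0.0470 in limma). The 4 females did not overlap with the 4 males for any of these genes, as for 17.4% of all tested probes. The genes were picked by the same levels, so this is not separate support. Ratios of mutant over wild type were 0.01, −0.05 and 0.19 for Rcan2, Homer2 and Fnip1.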
